A study of Mus musculus with 3 samples.

Results

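The genes described here are Ifnb1, which encodes interferon beta, and the 4 genes for the chains of the type I and type II interferon receptors, Ifnar1, Ifnar2, Ifngr1 and Ifngr2. These 5 genes were taken by symbol from the GENCODE M1 annotation of mm9, out of 22350 protein-coding genes on chromosomes 1 to 19 and X. Ser5-phosphorylated Pol_II, the form of RNA polymerase II that carries a phosphate on serine 5 of the repeats in its C-terminal domain, was located by ChIP-Seq: chromatin is cross-linked, the fragments bound by an antibody are recovered and their ends are sequenced. The cells were macrophages grown from the bone marrow of female Fvb mice (Fvb/Hsd in the methods) and used on day 7 of differentiation. The 3 libraries were Ser5 from untreated macrophages, Ser5 from macrophages stimulated for 2 h with LPS at 10 ng/ml, and input DNA from untreated macrophages. LPS is lipopolysaccharide, the component of Gram-negative bacteria that Toll-like receptor 4 detects. The labels and the text of the study on Ser5 name no other stimulus. One picture label for the stimulated Ser5 library adds gamma interferon, the ligand of the Ifngr1 and Ifngr2 chains, and the sources do not settle which holds. If it was present, its part in the ratios called LPS cannot be told apart. No genetic change is named in the labels, and both Ser5 libraries used the same antibody (ab5131). Each condition had 1 library, so no difference between them could be checked against replicates and none was tested, and the intervals given are 95% intervals for counting error alone. The question addressed is where Ser5-phosphorylated Pol_II lay before and after stimulation.

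Interferon beta is a secreted cytokine that macrophages release when they detect bacteria or viruses. It binds a receptor built from the Ifnar1 and Ifnar2 chains, which activates the kinases Tyk2 and Jak1 and, through them, factors that include Stat2 and Irf9. Interferon gamma, made mainly by T cells and NK cells, binds a receptor built from the Ifngr1 and Ifngr2 chains and acts through Jak1 and Jak2. Ifnb1 is a textbook gene for inducible transcription, with NF-kB and interferon regulatory factors binding side by side just upstream of its start, whereas the receptor chains are made in most cell types without stimulation.

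The sequences upstream of the starts differed between Ifnb1 and the receptor genes and are printed for Ifnb1 and for the 2 receptor genes with the most CG pairs. Each stretch runs from base -200 to base -51, counted from the annotated start of transcription (TSS), and is read 5′ to 3′ on the strand of the gene from the mm9 genome. Capitals mark matches on either strand to GGAAANNCC (part of the NF-kB consensus), AAANNGAAA (part of the interferon regulatory factor repeat), TATAAA (the TATA box) and GGGCGG (the Sp1 box).
Ifnb1 (chr4:88168749-88168898, minus strand): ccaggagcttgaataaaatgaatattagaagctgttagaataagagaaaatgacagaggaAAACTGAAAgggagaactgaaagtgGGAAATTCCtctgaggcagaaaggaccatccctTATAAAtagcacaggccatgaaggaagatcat
Ifnar1 (chr16:91485283-91485432, plus strand): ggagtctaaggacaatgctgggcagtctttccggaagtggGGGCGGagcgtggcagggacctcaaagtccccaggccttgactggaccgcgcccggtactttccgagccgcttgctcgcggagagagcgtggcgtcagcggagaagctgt
Ifngr2 (chr16:91547117-91547266, plus strand): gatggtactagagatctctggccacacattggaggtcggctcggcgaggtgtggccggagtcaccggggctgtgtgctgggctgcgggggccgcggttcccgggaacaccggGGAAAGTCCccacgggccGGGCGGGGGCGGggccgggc

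In the 250 bases upstream of its TSS, Ifnb1 held AAANNGAAA at -140, GGAAANNCC at -115 and TATAAA at -82 and at -210, each position being the first base of the match. These letters stood upstream of 9.79%, 4.83% and 12.3% of 22345 coding genes. The PU.1 core GAGGAA was present at -145 and, on the other strand, at -110, where it overlapped the letters named before. PU.1 is the macrophage lineage factor, and its letters stood in 23.1% of promoters. Ifnb1 held no GGGCGG and no CCAAT, the letters of the Sp1 and CCAAT boxes, which were found in 39.6% and 35.0% of promoters. The TTCNNNGAA of the gamma-activated site, the TGANTCA of AP-1 and the TGACGTCA of CRE were not in this window either.

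None of the 4 receptor genes had TATAAA or AAANNGAAA in the same 250 bases. Ifnar1 held GGGCGG at -160, -39 and -18 with TTCNNNGAA at -28 and GAGGAA at -209. Ifngr2 held GGGCGG at -70, -64, -43 and -38, CCAAT at -173 and GGAAANNCC at -88. Ifngr1 held GGGCGG at -99 and -88 and CCAAT at -150 and -126, while the one match in Ifnar2 was TTCNNNGAA at -214. Base composition separated Ifnb1 from the receptors in the same way: the window held 1 CG pair in Ifnb1, 21 in Ifnar1, 11 in Ifnar2, 11 in Ifngr1 and 25 in Ifngr2, against a median of 8 over all promoters. A match is a run of letters and not a measured binding site.

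Ifnb1 carried no Ser5 above input in untreated macrophages and gained it after LPS. The gene is a single exon of 770 bp on the minus strand (chr4:88167929-88168698). Over this gene body 3 tags were counted in untreated Ser5, 26 in Ser5 after LPS and 7 in the input, a tag being 1 aligned read counted at its 5′ end. Expressed as TPM (the tags of a region relative to all tags of the library, scaled to 1000000 tags) and per kb of length, the density was 0.512 in untreated cells (0.105 to 1.49) and 5.40 after LPS (3.53 to 7.92), with 1.21 in the input (0.485 to 2.49). LPS exceeded untreated by a ratio of 10.6 (3.24 to 54.5), and the intervals of the Ser5 densities did not overlap. In bulk chromatin, more cells with Pol_II on the gene and more Pol_II per cell cannot be told apart.

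The window of 1 kb on each side of the TSS gave the same order. It held 5 tags in untreated Ser5, 46 after LPS and 19 in the input, for a ratio of LPS to untreated of 11.2 (4.47 to 36.2). Untreated Ser5 in this window lay at 0.260 times the input (0.0760 to 0.721), and Ser5 after LPS at 2.92 times the input (1.68 to 5.27). About as many tags of each Ser5 library lay inside deposited peaks as outside them (49.9% outside in untreated, 46.4% after LPS, 95.5% in the input), so that a stretch without Ser5 lies below 1 against the input on this scale. Scaled to the tags outside peaks, the same ratios were 0.498 (0.145 to 1.38) and 6.01 (3.45 to 10.9).

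**Figure D1:**
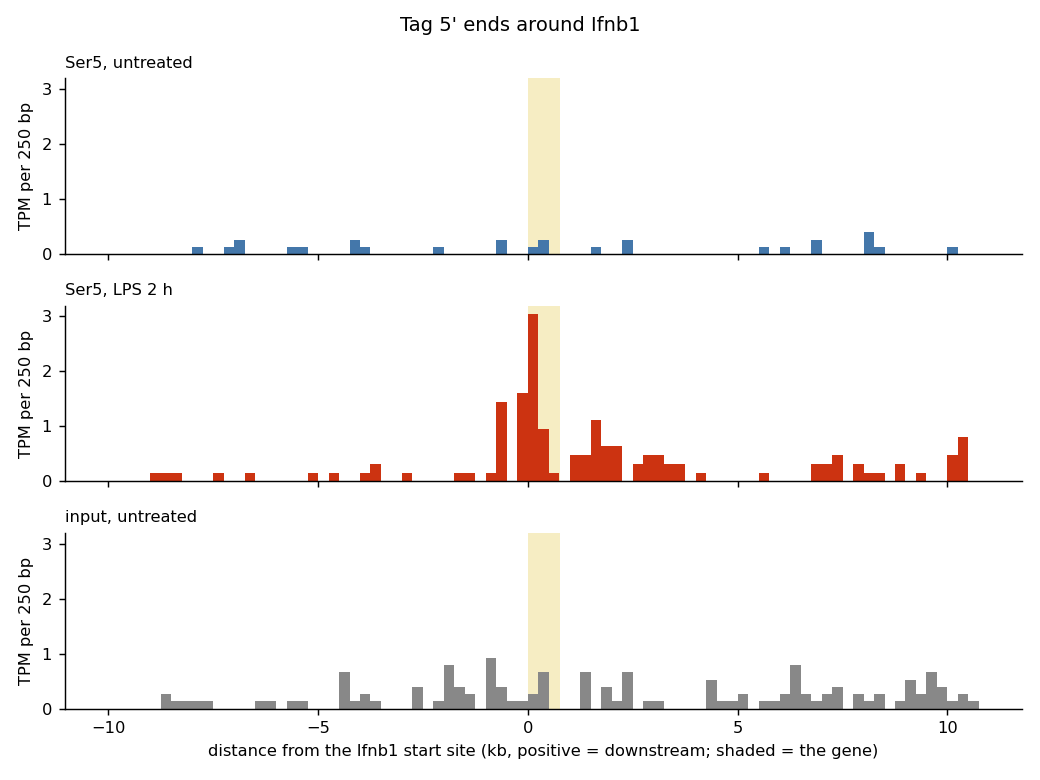
Tag 5′ ends around Ifnb1 in bins of 250 bp, as TPM per bin, for the 3 libraries on 1 scale, with distance from the TSS in kb and the gene shaded. Ser5 after LPS is tallest at the TSS and continues past the gene end, while untreated Ser5 (3 tags in the gene) lies below the input.

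The position of the new tags was close to the start of the gene. Within 1 kb of the TSS, 20 of the 46 LPS tags lay upstream and 26 at or downstream of it, at 37 distinct positions. Of these, 24 were on the plus strand, with a median of 85 bp downstream of the TSS, and 22 on the minus strand, with a median of 64 bp upstream. Fragments pulled down around 1 place are read from both ends, so the tags of a minus-strand gene that face each other in this way surround the start. In untreated Ser5 the strands had 4 and 1 tags, and in the input 5 and 14.

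A first group of LPS tags ran from 500 bp upstream to the gene end, with 36 tags after LPS against 3 in untreated Ser5 and 9 in the input. From there to 1000 bp upstream lay a further 10 LPS tags, against 2 and 10, a ratio to the input with an interval that holds 1 (0.450 to 3.23). These limits were chosen after the tags were seen.

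**Figure D2:**
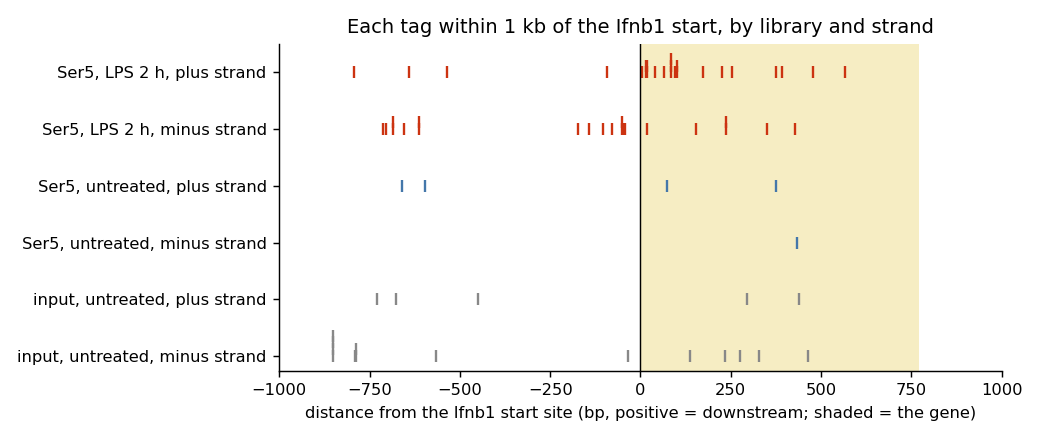
Each tag within 1 kb of the Ifnb1 TSS as a tick, by library and strand, with distance in bp on the x axis, tags at 1 position stacked and the gene shaded. The 24 plus-strand and 22 minus-strand LPS tags gather on facing sides of the TSS, and untreated Ser5 has 5 tags.

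The deposited peak lists showed the same change. No untreated Ser5 peak touched Ifnb1 or the 10 kb on either side, and the nearest one lay 83506 bp from the TSS, at the start of Ptplad2. After LPS 1 peak spanned the TSS (chr4:88168306-88168878), from 180 bp upstream to 392 bp downstream, and covered 51.0% of the gene. It held 33 tags after LPS, 2 in untreated Ser5 and 6 in the input. Its score, minus 10 times log10 of the p-value given by the peak caller, was 124.3, higher than 56.9% of the peaks in that list. The last 377 bp of the gene, past the peak, held 1, 3 and 2 tags in untreated Ser5, LPS and input, too few to show a difference.

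Past the end of Ifnb1 the LPS tags went on and were densest in the first 3 kb. In the first 3 kb after the gene end 3 tags were counted in untreated Ser5, 33 after LPS and 16 in the input, and the LPS density was 2.49 times the input (1.33 to 4.84). From 3 to 10 kb after the end the counts were 9, 24 and 50. LPS lay there at 0.579 times the input (0.340 to 0.959) and at 3.25 times untreated Ser5 (1.46 to 7.9). Untreated Ser5 itself lay at 0.178 times the input there (0.0770 to 0.366). The ratio of 3.25 thus rests on a low untreated count and does not by itself show Ser5 there after LPS. The border at 3 kb was chosen after the bins were seen: the first 3 bins of 1 kb held 13, 10 and 10 LPS tags, and the next 3 held 1, 1 and 0. Bins 7 to 10 held 7, 4, 3 and 8 LPS tags, against 2, 4, 0 and 1 in untreated Ser5, so the border was not sharp. No other gene is annotated there. Over the whole 10 kb downstream the counts were 12, 57 and 66, with a ratio of LPS to untreated of 5.79 (3.07 to 11.9). LPS lay there at 1.04 times the input (0.717 to 1.51) and untreated Ser5 at 0.180 times (0.0885 to 0.3355), on the scale of all tags. On that scale a stretch without Ser5 lies below 1, so these values do not show that the flank was free of Ser5.

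Upstream the LPS tags were few beyond 1 kb. The first 1 kb held 2, 20 and 12 tags, and the 9 kb beyond it 10, 13 and 34, with an LPS to untreated ratio of 1.58 (0.642 to 4.04). The whole 10 kb upstream gave 12, 33 and 46 tags and a ratio of 3.35 (1.69 to 7.13). LPS lay there at 0.865 times the input (0.536 to 1.38) and untreated Ser5 at 0.258 times (0.124 to 0.495), again on the scale of all tags. Of the 30-base sequences in those upstream 10 kb, 15.9% occur more than once in the genome and could not be placed there as unique tags of the LPS library, against 0.321% in the downstream 10 kb and 0 in the gene. For 45-base tags, the length in the untreated library, the upstream value was 8.87%. What these lengths did to the flank counts was not tested.

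Of the nearest coding genes, Ptplad2 was lower after LPS and Gm12597 had too few tags to compare. Ptplad2, 83097 bp downstream, had 448 tags over its body in untreated Ser5 and 136 after LPS, a ratio of 0.370 (0.303 to 0.449). Gm12597, 34879 bp upstream, had no tag over its body in any library, the input included, which allows up to 3. Its TSS window held 1 tag in untreated Ser5, 0 after LPS and 3 in the input. The next LPS peak upstream of Ifnb1 lay 14695 bp away, outside any gene, with a score of 67.6.

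The receptor genes, in contrast, carried Ser5 at their starts in both conditions. Ifnar1 is the signalling chain of the type I receptor that binds Tyk2, and Ifnar2 is its chain with the higher affinity for interferon, which binds Jak1. Around the TSS, untreated Ser5 density was 26.4 TPM per kb at Ifnar1 (403 tags), 22.4 at Ifnar2 (341 tags), 27.2 at Ifngr1 (415 tags) and 31.5 at Ifngr2 (480 tags). After LPS it was 19.2 (240 tags), 27.2 (340 tags), 27.5 (344 tags) and 32.1 (402 tags) in the same order. These values were 14.2 to 27.9 times the input in untreated cells and 10.3 to 29.3 times after LPS, and scaled to tags outside peaks 27.2 to 53.4 and 21.3 to 60.3 times. At the TSS of Ifnb1 the LPS density was 3.68 TPM per kb (2.69 to 4.91), below each of these.

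In order of untreated TSS density the receptors ran Ifngr2, Ifngr1, Ifnar1, Ifnar2. The counting intervals of Ifngr1 (24.7 to 30.0) and Ifnar1 (23.9 to 29.2) overlapped almost wholly, and each neighbour in the order overlapped the next. After LPS the order was Ifngr2, Ifngr1, Ifnar2, Ifnar1, and only the step down to Ifnar1 (16.8 to 21.8, against 24.4 to 30.2 for Ifnar2) left the intervals apart. Both orders hold for 1 kb on each side. Within 500 bp Ifngr1 led (52.3 untreated, 51.3 after LPS), above Ifngr2 (43.5 and 44.1). In the 1 kb windows, 17.1% of 30-base sequences at Ifnar2 and 6.95% at Ifnar1 occur more than once in the genome, against 0 at Ifngr1 and Ifngr2. What this did to the order was not tested. Ranked among the TSS densities of all 22350 genes, the 4 receptors stood above 93.5% to 97.8% of genes in untreated cells and above 91.9% to 97.6% after LPS. At the TSS, Ifnb1 moved from above 41.8% of genes to above 60.4%. Over the short Ifnb1 body the rank moved from above 52.5% of genes to above 93.5%. Its LPS body density was 5.40 TPM per kb, with 2.62 at Ifnar1, 5.08 at Ifnar2, 3.33 at Ifngr1 and 6.10 at Ifngr2. These are unlike measures: the Ifnb1 body lies wholly within 1 kb of its start, and the receptor bodies span 18098 to 46669 bp. The Ifnar2 value also takes in part of another gene, Il10rb, and was 3.71 for its longest transcript in the consensus coding set.

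**Figure D3:**
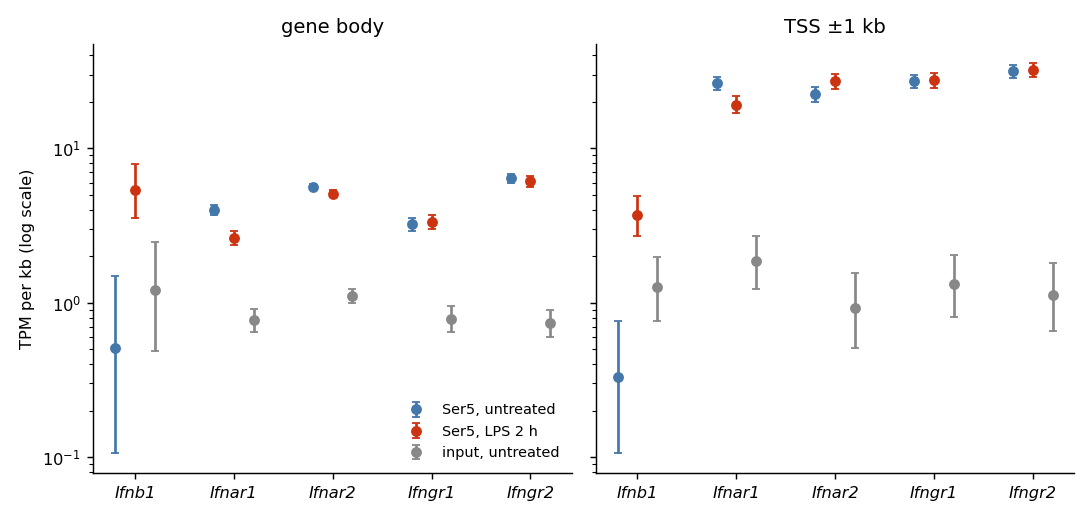
Ser5 and input density in TPM per kb on a log axis, over the gene body (left) and within 1 kb of the TSS (right), for the 5 genes in each of the 3 libraries, with 95% counting intervals. The receptors stand well above the input in both Ser5 libraries, and Ifnb1 stands above it only after LPS (5.40 against 1.21 over the body).

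Over the gene bodies Ifnar1 was the receptor gene that differed most between conditions. Ifnar1 (chr16:91485483-91507686, plus strand) had 676 tags in untreated Ser5, 364 after LPS and 129 in the input, a ratio of LPS to untreated of 0.656 (0.576 to 0.747). The TSS window gave 0.726 (0.616 to 0.854). With the input subtracted the body ratio was 0.574. The part of the gene more than 1 kb past the TSS had a ratio of 0.618. Its first, middle and last parts of equal length had 0.605, 0.651 and 0.606, so that the lower level ran evenly through the gene. In the Ifnar1 body 11.7% of 30-base sequences, the LPS tag length, occur more than once in the genome, and 7.01% of 45-base ones. The other receptor bodies had 3.80% to 5.56% at 30 bases. What these lengths did to the ratios was not tested.

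In the 5 kb after the end of Ifnar1 the difference was larger. There 181 tags were counted in untreated Ser5, 50 after LPS and 28 in the input, a ratio of 0.337 (0.241 to 0.463). This interval lay wholly below that of the gene body. The same stretch after Ifngr1 gave 1.08 (0.771 to 1.51) and after Ifngr2 0.847 (0.609 to 1.17). A lower level past the gene was not particular to Ifnar1. The neighbouring gene Il10rb ends 53.05 kb from the Ifnar2 TSS. The 1-kb bins at 54.5, 55.5, 56.5 and 57.5 kb held 9.32, 9.72, 4.73 and 1.44 TPM per kb in untreated Ser5. After LPS they held 2.88, 4.64, 0.800 and 0.640.

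Ifngr1, the ligand-binding chain of the interferon gamma receptor, was level (chr10:19311755-19330035, plus strand). Its body held 447, 380 and 108 tags in untreated Ser5, LPS and input, a ratio of 1.04 (0.901 to 1.19), and the TSS ratio was 1.01 (0.873 to 1.17). Ifngr2, the chain that brings Jak2 to the receptor, was level as well (chr16:91547317-91565414, plus strand). Its body held 880, 690 and 100 tags, a ratio of 0.956 (0.864 to 1.06), and the TSS ratio was 1.02 (0.892 to 1.17). These intervals hold 1 and leave room for counting differences of up to about the widths given.

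Ifnar2 overlaps another receptor gene in the annotation (chr16:91373028-91419696, plus strand). From chr16:91406409 onward it shares its span with Il10rb, a chain of the interleukin-10 and interferon lambda receptors on the same strand, and tags there cannot be divided between both. The annotated body held 1984, 1482 and 390 tags, a ratio of 0.910 (0.851 to 0.974). The part before Il10rb had 974, 844 and 250 tags and a ratio of 1.06 (0.962 to 1.16), and the shared part had 1010, 638 and 140 tags and a ratio of 0.770 (0.696 to 0.851). Ended at its longest transcript in the consensus coding set, Ifnar2 had a ratio of 1.06 (0.961 to 1.17), and its TSS window had 1.22 (1.04 to 1.42). The side of 1 on which the Ifnar2 body ratio lay thus turned with the end chosen for the gene.

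By the rule of size used here, a ratio of at least 2 in either direction for regions with 10 or more tags in both Ser5 libraries together, Ifnb1 was higher after LPS and the 4 receptors were neither higher nor lower, over the body and at the TSS. Of 17386 gene bodies that had enough tags, 5.83% were higher and 11.3% lower, and of 12535 TSS windows 5.58% were higher and 14.1% lower. The median ratio over all genes tested was 0.874 for bodies and 0.831 for TSS windows, and that of the 5 genes was 0.956 and 1.02, the value of Ifngr2 in both cases. The body median takes Ifnar2 to its annotated end (0.910), which includes part of Il10rb. With Ifnar2 at its consensus end (1.06) the median is the 1.04 of Ifngr1. The Ifnb1 body ratio lay above those of 99.8% of genes tested, that of Ifnar1 above 24.1%, Ifngr1 above 67.0% and Ifngr2 above 58.9%. That of Ifnar2, to its annotated end, lay above 54.0%.

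A deposited peak covered each of the 4 starts in both libraries. At the start of Ifnar1 the score went from 2426 in untreated cells to 1123 after LPS, and the peaks within the gene from 13 to 3. At Ifnar2 the scores were 2516 and 2488, at Ifngr1 2437 and 2014, and at Ifngr2 3100 in both. That score is shared by 749 untreated and 739 LPS peaks, so that equal values there do not show equal levels. Peaks within the body numbered 5 and 7 at Ifngr1, 20 and 15 at Ifngr2, and 11 and 11 at Ifnar2 up to its consensus end (23 and 18 up to its annotated end). Each list was called on a library of its own depth, and the LPS library had fewer tags (6249819 against 7616771), so that counts of weak peaks are not on one scale.

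The Ser5 profile along the receptor genes was peaked at the start. The TSS window was 9.07 times as dense as the body from 1 kb onward at Ifnar1 in untreated cells (7.92 to 10.4) and 10.6 times after LPS (8.86 to 12.8). At Ifngr1 the ratios were 13.8 and 11.9, at Ifngr2 6.21 and 7.13, and at Ifnar2 to its consensus end 8.35 and 9.84. Each pair of intervals overlapped, so that no shift between start and body was detectable at this depth. To its annotated end Ifnar2 had 4.43 (3.93 to 4.97) and 6.11 (5.41 to 6.89), apart from each other, but that stretch takes in most of Il10rb. In the input the same ratios were between 0.967 and 2.58 with the consensus end of Ifnar2 and 0.843 with its annotated end. A gene of 770 bp has no body outside the TSS window, and Ifnb1 was left out here.

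Of the 4 receptor genes, 3 lie in a row on chromosome 16, all on the plus strand, over 192386 bp from the start of Ifnar2 to the end of Ifngr2, with Il10rb among them. Il10rb had 1235 tags over its body in untreated Ser5 and 722 after LPS, a ratio of 0.713 (0.649 to 0.782), with a TSS ratio of 1.16 (1.01 to 1.33). Body ratios below 1 by more than their intervals were thus found at Il10rb and at Ifnar1, and not at Ifngr2. The part of Ifnar2 shared with Il10rb lies within Il10rb and holds 1010 and 638 of those tags, so it is not a separate stretch. Over all gene bodies tested the median ratio was 0.874. Tmem50b, the next coding gene 9334 bp past Ifngr2, had 189 and 287 tags, a ratio of 1.85 (1.54 to 2.24).

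Between Il10rb and Ifnar1, Ser5 was also found outside coding genes, at places chosen after they were seen in the bins of 1 kb. A site without an annotated gene, centred 8.96 kb upstream of the Ifnar1 TSS (chr16:91476028-91477027), held 114 tags in untreated Ser5, 29 after LPS and 3 in the input, a ratio of 0.310 (0.199 to 0.470). The start of A930006K02Rik, a lincRNA 20.1 kb upstream of the Ifnar1 TSS, held 308, 160 and 22 tags within 1 kb, a ratio of 0.633 (0.520 to 0.769). On the far side, 37.0 kb downstream of the Ifnar1 TSS, a bin held 96, 49 and 12 tags, a ratio of 0.622 (0.432 to 0.887). The bins did not all differ in that direction: between Ifnar1 and Ifngr2, at 161.5 kb from the Ifnar2 TSS, 0.525 and 2.72 TPM per kb were found in untreated Ser5 and after LPS, with 2.79 in the input. Deposited peaks lying wholly between Il10rb and Ifnar1 numbered 13 in untreated cells and 5 after LPS.

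**Figure D4:**
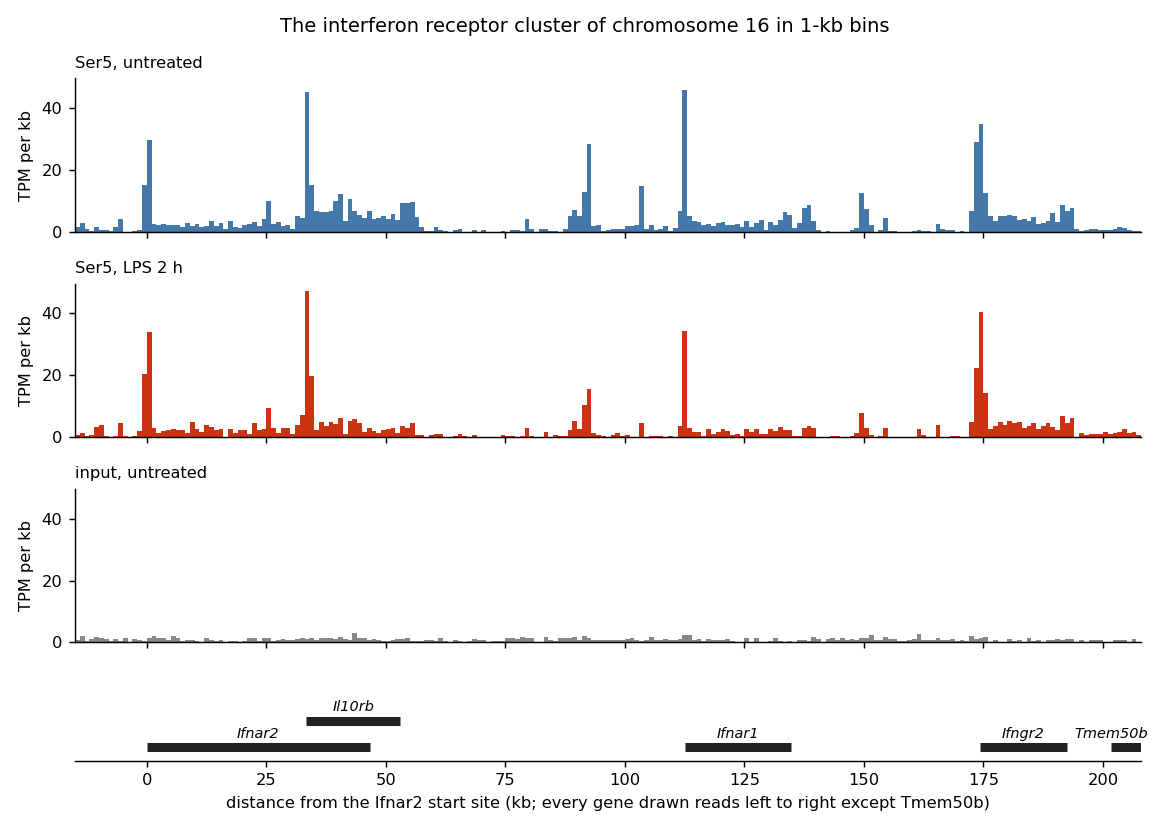
Tags in 1-kb bins along the receptor cluster of chromosome 16, as TPM per kb, against distance from the Ifnar2 TSS in kb, for the 3 libraries on 1 scale, with the coding genes drawn as bars. The starts of Ifnar2, Il10rb, Ifnar1 and Ifngr2 stand out in both Ser5 libraries, and the bin at 103.5 kb holds 114 tags in untreated Ser5 and 29 after LPS.

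Beyond the 5 genes, the genes that act with them were read from lists. The route from Toll-like receptor 4 to Ifnb1 held 11 genes, and 5 of them were past the rule upward and 0 downward over the body, against 5.83% and 11.3% of all gene bodies tested, with a median ratio of 1.26 against 0.874. Those 5 were Cd14, which hands LPS to the receptor (620 to 1618 tags, ratio 3.18), Irf7, an interferon regulatory factor (534 to 1147, 2.62), the kinases Ikbke (2058 to 4339, 2.57) and Tbk1 (634 to 1094, 2.10), and Ticam2, an adaptor (259 to 441, 2.08). Tlr4 itself had 774 and 427 tags (0.672), the adaptor chain member Traf3 812 and 416 (0.624), Irf3 359 and 239 (0.811), Ticam1 367 and 283 (interval 0.802 to 1.10), Ly96 251 and 194 (0.942) and Irf5 1318 and 1363 (1.26). Tlr4, Traf3 and Irf3 had intervals below 1 without passing the rule.

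The kinases and factors that carry the signal from the receptors inward were read over 5 genes, and 3 were past the rule upward and 0 downward (5.83% and 11.3% of all bodies), with a median of 2.19. Jak2, the kinase bound to Ifngr2, had 304 tags in untreated Ser5 and 1288 after LPS (5.16, 4.55 to 5.87). Tyk2, the kinase bound to Ifnar1, had 430 and 880 (2.49) and Stat2 766 and 1376 (2.19). Irf9 had 735 and 989 (1.64) and Jak1 1005 and 928 (1.13).

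The negative regulators at the receptors held 6 genes, of which 3 were past the rule upward and 0 downward (5.83% and 11.3% of all bodies), with a median of 2.58. Socs3, an inhibitor of cytokine receptors, had 244 and 2129 tags (10.6, 9.31 to 12.2), Socs1, an inhibitor of Jak kinases, 156 and 525 (4.10), and Usp18, which binds Ifnar2 and dampens its signal, 679 and 2117 (3.80). The phosphatases Ptpn2, Ptpn11 and Ptpn6 had ratios of 1.35, 1.16 and 0.903. In TSS windows 2 of 5 kinases and factors, 3 of 11 genes of the Toll-like receptor route and 3 of 6 negative regulators were past the rule upward, and 0 of each downward, against 5.58% and 14.1% of all TSS windows tested.

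**Figure D5:**
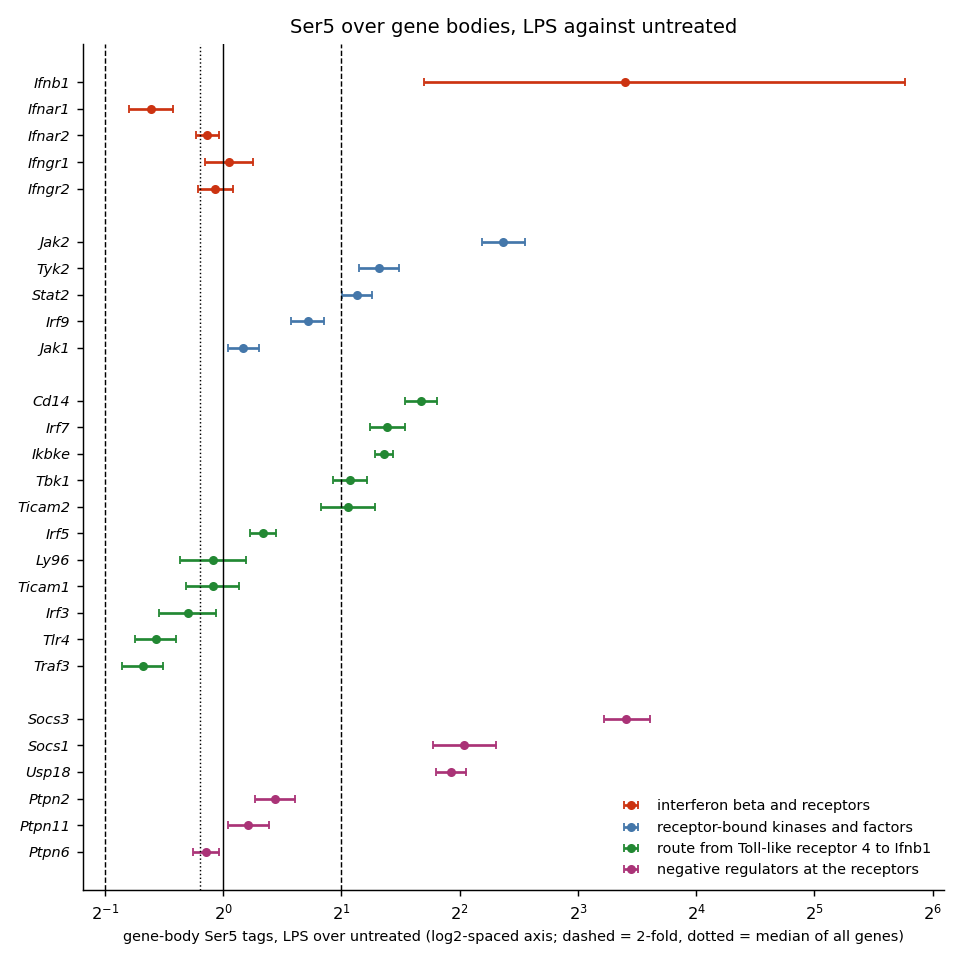
Ratio of gene-body Ser5 tags, LPS over untreated, with 95% counting intervals on an axis spaced by log2, for the 5 genes and the pathway lists. Solid, dashed and dotted lines mark 1, the 2-fold rule and the median of all genes tested (0.874), and Ifnb1 at 10.6 has the widest interval.

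Among other receptors of the same family (class II cytokine receptors), 3 of 8 were past the rule upward over the body and 0 downward (5.83% and 11.3% of all bodies), with a median of 1.61. On the scale of all tags, on which a stretch without Ser5 lies below 1, 2 of those 3 lay below the input. Il20rb had 142 and 250 tags (2.15). F3, the tissue factor gene, had 12 and 39 against 54 tags of the input, with LPS at 0.871 times the input (0.561 to 1.34). Il22ra2, a soluble receptor for interleukin-22, had 10 and 20 against 73. At its TSS, F3 had 8 and 59 tags against 8 in the input, a ratio of 8.99 (4.28 to 21.8), and was the 1 TSS window of 4 tested in this list that was past the rule. Il10ra, the other chain of the interleukin-10 receptor, had 1072 and 1315 tags (interval of the ratio 1.38 to 1.62).

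The other interferon genes carried next to no Ser5 tags. Of 20 genes listed, 18 were annotated, and their bodies held between 0 and 5 tags in untreated Ser5 and between 0 and 10 after LPS. Only Ifnk had the 10 tags needed, and it was past the rule upward over the body and at the TSS. Its body held 5 and 10 tags, against 15 in the input, a ratio of 2.44 (0.759 to 9.09). The TSS window held 4 and 13, against 10 in the input, a ratio of 3.96 (1.22 to 16.7). Among all genes tested 5.83% of bodies and 5.58% of TSS windows were higher. In the bodies of the other interferon genes, the median share of 30-base sequences found more than once in the genome was 46.9%. The highest was 89.3%, against 0 in Ifnb1, and such sequences gave no unique tags. Ifnk, Ifne and Ifng had shares of only 0.989%, 0 and 0.893%. In the interferon alpha genes, absent Ser5 and tags lost to repeated sequence cannot be told apart.

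For the cells themselves, all 8 macrophage markers listed stood above the input over their bodies in untreated Ser5 and 7 of 8 after LPS. Over the body, Emr1 (3.01) and Cd14 (3.18) were past the rule upward and Lyz2 (0.405), Cd68 (0.263), Csf1r (0.449) and Itgam (0.229) downward. At the TSS, Emr1, Cd14, Lyz2 and Itgam were past it in the same directions, and Cd68 (0.507) and Csf1r (0.607) were not. Of all bodies tested 5.83% were higher and 11.3% lower, and of TSS windows 5.58% and 14.1%. These shares are the background for each marker list here. The LPS-response genes Ccl5, Il1b, Tnf and Nfkbia were all past the rule upward over the body and at the TSS. Their body ratios were 396, 44.5, 9.62 and 6.17. Of 4 T cell markers, Cd3d (136 and 76 tags, 35 in the input) and Lck (312 and 281, 99 in the input) stood above the input over their bodies in both Ser5 libraries, and 0 of 4 did at the TSS. The summed level of the 4 was 60.5 TPM in untreated Ser5 and 58.9 after LPS over bodies (27.6 in the input) and 0.525 and 1.60 at the TSS (5.04 in the input). For 4 fibroblast markers the body sums were 15.9 and 17.9 (52.0 in the input), with 0 of 4 above the input, and the TSS sums 0.919 and 1.44 (2.52 in the input). For 4 B cell markers they were 34.0 and 26.7 (73.5 in the input) and at the TSS 4.07 and 2.08 (3.32 in the input), and Cd79b, with 20 and 4 body tags, was past the rule downward. For 4 neutrophil precursor markers they were 5.25 and 7.52 (8.89 in the input) and at the TSS 4.20 and 10.4 (5.18 in the input), and Camp, with 11 and 29 body tags, was past the rule upward. Among markers of plasmacytoid dendritic cells, the cell type known for the largest interferon output, Siglech had 11 and 4 tags and Flt3 85 and 64, below their 28 and 280 in the input, while Bst2 (221 and 494) and Tcf4 (2351 and 3162) stood above it. Bst2 and Tcf4 are also used by other cell types, and the part of other cells in the Ifnb1 tags was not tested.

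The genes most like each of the 5 in 4 log2 densities (body and TSS, untreated and LPS) were found among 17386 genes, over 2 libraries only. For Ifnb1 they were Gja1, a gap junction protein (body ratio 5.02, TSS ratio 9.61), and Lcn2, a secreted iron-scavenging protein (21.1 and 17.5). Both were low in untreated Ser5 and higher after LPS, at a distance of 1.23 and 1.31. The nearest genes of the receptors were closer. They were Slc5a6 and Atp6v0a1 for Ifnar1 (0.139 and 0.178), Gm505 and Zfp213 for Ifnar2, Dcaf12 and Slc9a3r1 for Ifngr1 (0.0883 and 0.131), and E4f1 and Arhgef2 for Ifngr2. The match for Ifnar2 used its annotated body, which takes in part of Il10rb (5.58 TPM per kb untreated, 5.08 after LPS). To its consensus end these densities were 3.50 and 3.71.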

How the data were processed

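Per the study's methods, the authors shortened the 76-base reads from the 3′ side, placed them on mm9 with Bowtie (uniquely, with no more than 2 mismatches) and ran MACS for each Ser5 library with the input as control (p-value 1e-05); versions are not given in the sources used here. The methods give 30 and 45 bases for untreated and LPS reads, whereas the deposited tags span 45 and 30 bases, and 36 in the input. The deposited tag positions, an unscaled unit, keep duplicates. The deposited peak score is minus 10 times log10 of p, and positions may be uncertain by 1 base. The labels give LPS alone, whereas one picture label for Ser5 adds gamma interferon.

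Tags on chromosomes 1 to 19 and X (7616771 untreated, 6249819 LPS, 7533308 input) were counted by 5′ end in gene bodies, TSS windows of 1 kb each side and flanks of 10 kb. Genes came from GENCODE M1 on NCBIM37, the same assembly as mm9. Exact Poisson intervals were used for counts and exact conditional intervals for ratios. In the rule of size a count of 0 was replaced by 0.5, and a count of 0 was read as up to 3 tags. Genes named are the 5 members, the genes of the lists past the rule, other genes of the same lists, annotated neighbours and the 2 most alike genes of each member. One gene was left out of its list and is not reported here, and some genes of the lists enter only the counts. The members, lists and rules were chosen with earlier results of these data known. Alternatives were shifting tags by 75 bp downstream, keeping 1 tag for each position and strand, scaling to tags outside peaks, other windows, starts and gene ends, input subtraction, peaks with p of at most 1e-10, an overlap of at least 50% of the peak, no minimum of tags and a 4-fold rule. Ending genes at their longest consensus coding transcript was added after the data were seen. Functions were tested on simulated data. Python 3.11.15, numpy 2.4.6, pandas 2.3.3, scipy 1.17.1, numba 0.67.0 and matplotlib 3.10.9 were used.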

Additional observations from a re-analysis of the deposited data

How the results depend on the processing

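Of 180 alternative values for 56 results, 148 stayed within the interval of the value reported or, for counts, within 1.5 times of it, and 32 moved. No ratio past the 2-fold rule changed its direction. The Ifnb1 ratios of LPS to untreated stayed between 8.44 and 14.6 over the body and between 9.37 and 14.2 at the TSS.

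Scaled to tags outside the peaks, Ser5 at the Ifnb1 TSS after LPS was 6.01 times the input. The receptors then ranged from 7.83 to 16.7 times the input over bodies in untreated cells and from 7.00 to 17.1 after LPS, and from 27.2 to 53.4 and from 21.3 to 60.3 at the TSS. The same scaling gave an Ifnar2 body ratio of 0.980, and the consensus coding end gave 1.06. Input subtraction gave 0.574 for Ifnar1 and no value for Ifnb1, whose untreated count lies below the input. The ratio of TSS to body density moved for Ifnar2 with the consensus end (8.35 untreated, 9.84 after LPS) and with 1 tag per position (5.24 after LPS), and for Ifngr1 with 1 tag per position (10.7 untreated).

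With peaks of p at most 1e-10, untreated and LPS bodies held 4 and 1 peaks at Ifnar1, 12 and 9 at Ifnar2 to its annotated end (4 and 6 to its consensus end), 3 and 1 at Ifngr1, and 10 and 7 at Ifngr2. Requiring 50% of the peak left 1 untreated peak at the Ifnar1 TSS. With no minimum of tags 1767 gene bodies were higher, and 2979 TSS windows were higher and 3683 lower. With the 4-fold rule 242 bodies were higher and 275 lower, and 219 TSS windows higher and 358 lower.

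With 1 library per condition there is no replicate to leave out in turn. No paired analysis was possible because no group had a second replicate. Differences between cultures or sequencing runs cannot be told apart from the effect of LPS, and the tag lengths differed between the libraries. With 3 untreated tags over Ifnb1, the size of its ratio is known only within its interval.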
